A study of Mus musculus with 6 samples.

Results

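The tight junction genes Cldn1, Cldn3, Cldn4, Cldn7, Cldn8, Cldn12, Cldn23, Ocln and Tjp1 were followed in the corneal epithelium of mice with and without Rela. These 9 genes were taken by symbol from the 17866 genes of the deposited table, and all 9 had enough counts to be among the 13305 genes tested. The samples were 3 wild-type (WT) and 3 Rela-/- (KO) libraries of RNA from the separated corneal epithelium of C57BL/6 mice at 6 months of age, each from a different biological sample. In the study, Rela, the gene of the p65 subunit of NF-κB, was removed by crossing a floxed allele to Krt14-Cre, which is active in corneal, limbal and conjunctival epithelium and in skin, so the deletion was not limited to the cornea. The sex of the mice, the exact alleles of the WT mice and whether a sample pooled animals are not given in the sources used here.

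Tight junctions seal the space between neighbouring epithelial cells near their apical side. In the corneal epithelium they lie in the outermost cell layer and keep tear fluid and microbes out of the tissue. Claudins are small proteins that cross the membrane several times and link up between cells into strands. Some claudins close the space to ions and others form ion-selective pores, so that the mix of claudins sets what passes. Occludin, the product of Ocln, sits in the same strands. ZO-1, the product of Tjp1, is a scaffold in the cytoplasm that binds the tails of most claudins and ties the strands to actin.

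The library totals lay between 20158404 and 20880347 estimated counts. Rela itself, as a check on the labels, had 318, 223 and 313 counts in KO against 1844 to 1871 in WT. The tissue was checked by 6 corneal markers (Krt12, Pax6, Aldh3a1, Tkt, Slurp1 and Upk1b), which summed to between 68000 and 68900 CPM (counts scaled to the library total) in WT and between 11600 and 14300 CPM in KO. Of 7 epidermal markers, 5 were higher and 1 lower in KO, and their sum rose from between 29.0 and 41.0 CPM to between 12100 and 24300 CPM. Of 9 conjunctival and goblet cell markers 8 were tested, of which 6 were higher. Their sums, held mainly by Krt4 and Krt13, were 1940 to 2980 CPM in WT and 52400 to 67000 CPM in KO. Among all genes tested 31.8% were called higher and 30.2% lower. The KO tissue thus held fewer corneal and more epidermal and mucosal transcripts, and in bulk RNA fewer cells of a type and less RNA per cell cannot be told apart.

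The table held 19 claudin genes (gene positions are those of the table, on GRCm38), and the promoter sequences of 4 of them are given, 2 that fell and 2 that rose. Cldn3 and Cldn4 fell and are neighbours on chromosome 5, whereas Cldn1 and Cldn17 rose and both lie on chromosome 16, far from each other. The sequences are the 250 bases before the RefSeq transcription start (GRCm38.p6), 5′ to 3′ on the strand of the gene. The positions are chr5:134985964-134986213 on the plus strand for Cldn3, chr5:134946935-134947184 on the minus strand for Cldn4, chr16:26371840-26372089 on the minus strand for Cldn1 and chr16:88506979-88507228 on the minus strand for Cldn17. Capitals mark the GC box GGGCGG and the E-box CACCTG, read on both strands.
Cldn3: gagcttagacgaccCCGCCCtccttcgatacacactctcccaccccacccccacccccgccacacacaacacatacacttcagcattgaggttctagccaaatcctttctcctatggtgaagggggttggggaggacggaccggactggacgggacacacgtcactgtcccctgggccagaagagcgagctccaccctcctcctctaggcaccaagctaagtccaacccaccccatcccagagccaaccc
Cldn4: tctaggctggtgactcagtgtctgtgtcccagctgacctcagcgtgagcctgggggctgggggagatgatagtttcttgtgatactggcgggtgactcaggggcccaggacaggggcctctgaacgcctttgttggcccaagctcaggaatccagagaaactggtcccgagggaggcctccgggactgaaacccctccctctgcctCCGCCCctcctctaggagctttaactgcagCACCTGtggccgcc
Cldn1: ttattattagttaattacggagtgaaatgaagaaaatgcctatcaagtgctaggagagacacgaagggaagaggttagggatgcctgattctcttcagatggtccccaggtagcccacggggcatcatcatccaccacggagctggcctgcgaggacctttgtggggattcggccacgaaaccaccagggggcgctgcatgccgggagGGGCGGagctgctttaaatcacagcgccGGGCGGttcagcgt
Cldn17: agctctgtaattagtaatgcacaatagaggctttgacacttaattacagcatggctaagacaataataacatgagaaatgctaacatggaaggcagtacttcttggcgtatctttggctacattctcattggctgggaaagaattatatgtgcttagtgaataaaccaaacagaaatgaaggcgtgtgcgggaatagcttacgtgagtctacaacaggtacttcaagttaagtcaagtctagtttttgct
Cldn3 held 1 GC box and Cldn1 held 2, while Cldn4 held 1 GC box and 1 CACCTG. Cldn17 held neither, and its window had a GC content of 38.4% beside 55.6% to 62.0% in the other 3 and a median of 52.4% over all 32851 promoter windows. A GC box was present in 32.7% and a CACCTG in 17.2% of all windows of this length. Windows were given for 7 of the 9 genes, all but Cldn8 and Cldn23. In none of these windows was the κB consensus or the sequence AACNGGTT of Grainyhead-like factors found. These motifs were found in 7.25% and 1.79% of all windows. A window of 250 bases leaves sites farther away unexamined. The Tjp1 window lay at a transcription start 156564 bases from the gene start used here. For Ocln the distances were 973 and 1193 bases.

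The claudins moved in opposite directions in KO. The 4 most abundant claudins of WT cornea, Cldn4, Cldn7, Cldn23 and Cldn3, were lower, by 1.47-fold for Cldn4 up to 3.21-fold for Cldn3. Cldn1 was 2.11-fold and Cldn8 4.63-fold higher, and the level of Cldn12 did not pass the test. Ocln and Tjp1 were lower, by 1.36-fold and 1.81-fold. In all 6 of the 9 genes were called lower and 2 higher at an adjusted p of 0.05 (edgeR quasi-likelihood test, Benjamini-Hochberg adjustment over all genes tested). Among all genes tested 62.0% were called, 30.2% lower and 31.8% higher, so that a call in itself is common here. At the stricter limit of an adjusted p of 0.001 and a fold change of 2, Cldn3 and Cldn7 were lower and Cldn8 was higher, 3 of 9 genes, where 19.8% of all genes tested passed (8.24% lower and 11.6% higher). The WT and KO ranges were apart for 8 of the 9 genes and for 68.6% of all genes tested. The median log2 fold change (log2FC, KO over WT) of the 9 genes was -0.56, beside 0.01 over all genes tested.

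**Figure D1:**
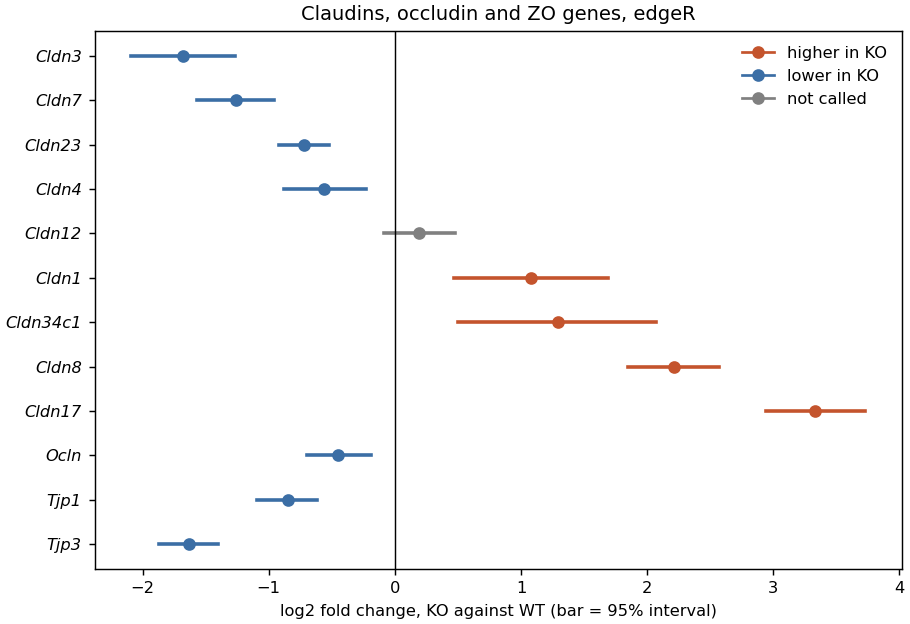
Log2 fold change of KO against WT on the horizontal axis for the claudins tested, Ocln, Tjp1 and Tjp3, with the 95% interval from edgeR as bars. The interval of Cldn12, from -0.09 to 0.48, crosses 0, while Cldn17, at 3.33, lies farthest to the right and Cldn3, at -1.68, farthest to the left.

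Cldn4 (gene 12740, chromosome 5, positions 134945123 to 134946934, minus strand, a single exon) encodes a sealing claudin of the corneal surface. It had 7398, 9050 and 9925 counts in WT, against 4926, 5572 and 6175 in KO. Every KO library lay below every WT library, although the spread within WT was wide. The mean fell from 410 ± 66.2 to 279 ± 29.1 CPM (± SD, n = 3 each), and the log2FC was -0.56 (SE 0.141, adjusted p = 0.00856, edgeR).

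Cldn7 (gene 53624, chromosome 11, positions 69964779 to 69967886, plus strand, 4 exons) encodes a claudin that is also found along the lateral membrane, where it binds Epcam. Its counts were 5008, 5939 and 6373 in WT, against 2156, 2000 and 2538 in KO. The groups were far apart, and 41.6% of the WT level was left. The log2FC was -1.26 (SE 0.134, adjusted p = 8.23e-05, edgeR).

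Cldn3 (gene 12739, chromosome 5, positions 134986214 to 134987476, plus strand, a single exon), another sealing claudin, showed the lowest log2FC of the 9 genes. The WT libraries held 1071, 972 and 1368 counts and the KO libraries 278, 305 and 404. The highest KO library thus stayed well under the lowest WT library. The level went from 53.0 ± 10.4 to 16.5 ± 3.20 CPM (± SD, n = 3 each), with a log2FC of -1.68 (SE 0.180, adjusted p = 8.69e-05, edgeR).

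Cldn23 (gene 71908, chromosome 8, positions 35824709 to 35828055, plus strand, a single exon) was the steadiest of the claudins among replicates. It had 2206, 2292 and 2409 counts in WT, against 1301, 1223 and 1370 in KO. The groups did not overlap, and the log2FC was -0.72 (SE 0.0882, adjusted p = 1.87e-04, edgeR).

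Cldn8 (gene 54420, chromosome 16, positions 88560826 to 88563183, minus strand, a single exon) encodes a sealing claudin known from the kidney collecting duct and the colon. Counts were 92, 95 and 123 in WT, against 395, 482 and 458 in KO. Each KO library exceeded every WT library, and the replicates within each group lay close together. The log2FC was 2.21 (SE 0.157, adjusted p = 1.06e-05, edgeR).

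Cldn1 (gene 12737, chromosome 16, positions 26356645 to 26371839, minus strand, 4 exons) encodes the claudin that the epidermal water barrier depends on. It had 174, 359 and 299 counts in WT, against 410, 598 and 629 in KO. WT replicate 1 was low, and KO replicate 1 lay nearest to WT. The log2FC was 1.08 (SE 0.266, adjusted p = 0.00741, edgeR) and 0.83 without WT replicate 1 (adjusted p = 0.0103). On the TPM scale (counts scaled to transcript length and library, a level per length) KO replicate 1, at 11.2, fell just below WT replicate 2, at 11.4, so that the groups touched on that scale.

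Cldn12 (gene 64945, chromosome 5, positions 5505015 to 5514976, minus strand) encodes a claudin without the tail motif by which most claudins bind ZO proteins. Its counts were 282, 345 and 287 in WT, against 294, 341 and 333 in KO. The groups overlapped, and the log2FC of 0.19 had a 95% interval from -0.09 to 0.48 (adjusted p = 0.213, edgeR). With an offset for gene length the log2FC was 0.35 and passed (adjusted p = 0.0421), and as TPM the mean was lower in KO (7.65) than in WT (8.50), so the direction depended on the scale.

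**Figure D2:**
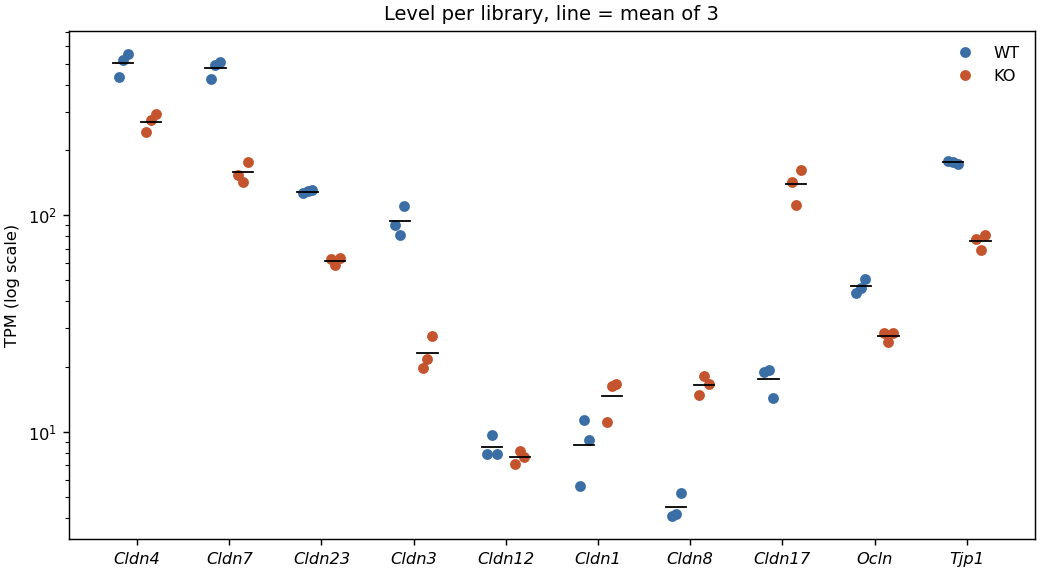
TPM per library on a logarithmic vertical axis for the 9 genes and Cldn17, with WT in blue, KO in red and a line at the mean of 3 libraries. The WT and KO points are apart for Cldn3, Cldn4, Cldn7, Cldn8, Cldn17, Cldn23, Ocln and Tjp1. They overlap for Cldn12 and, narrowly, for Cldn1.

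Of the 12 other claudins in the table, only Cldn17 and Cldn34c1 had enough counts for a test, and both were called higher. Cldn17 (gene 239931, chromosome 16, positions 88505807 to 88506978, minus strand, a single exon) encodes a claudin that forms pores for anions. It had 207, 215 and 165 counts in WT, against 1853, 1459 and 2175 in KO. No KO library came near a WT library. The level rose 10.1-fold, from 9.10 ± 1.14 to 91.8 ± 17.7 CPM (± SD, n = 3 each), with a log2FC of 3.33 (SE 0.171, adjusted p = 2.14e-06, edgeR). Cldn34c1 (log2FC 1.29, SE 0.342, adjusted p = 0.0106, edgeR) had at most 33.8 counts in a library, and its counts were not whole, as happens when reads are divided among similar genes, so its level is uncertain. Of the 10 claudins left out of the test, named here to account for the family, Cldn6, Cldn9, Cldn19, Cldn22 and Cldn24 were at or under 3 counts in every library. Cldn2, Cldn10, Cldn11, Cldn15 and Cldn20 reached at most 10 counts. The pore-forming Cldn2 and Cldn15 of leaky epithelia were therefore close to the limit of detection, which at 3 counts was between 0.137 and 0.152 CPM. Cldn5, the claudin of vessel endothelium, was not among the genes of the table.

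The ranking of the levels per length shifted between the genotypes. In WT the mean TPM was highest for Cldn4 (500.0 ± 62.2) and Cldn7 (476 ± 47.0), whose ranges overlapped, followed by Tjp1 (175 ± 3.05), Cldn23 (128 ± 2.58), Cldn3 (93.7 ± 14.9), Ocln (47.0 ± 3.61), Cldn17 (17.5 ± 2.74), Cldn1 (8.74 ± 2.92), Cldn12 (8.50 ± 1.03) and Cldn8 (4.50 ± 0.633), all as mean ± SD with n = 3. Cldn1 and Cldn12 overlapped and the other neighbours in this order did not. In KO the order was Cldn4 (269 ± 25.9), Cldn7 (157 ± 17.4), Cldn17 (139 ± 25.1), Tjp1 (75.9 ± 6.03), Cldn23 (61.6 ± 2.62), Ocln (27.6 ± 1.51), Cldn3 (23.1 ± 4.19), Cldn8 (16.5 ± 1.62), Cldn1 (14.6 ± 3.03) and Cldn12 (7.65 ± 0.525). Here the ranges of Cldn7 and Cldn17, of Ocln and Cldn3, and of Cldn8 and Cldn1 overlapped. Cldn17 thus stood above Tjp1 in each KO library and below Ocln in each WT library.

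The mix of claudin mRNA was then described as the share of each gene in the summed TPM of all claudins of a library. Cldn4 kept a like share, with 38.9%, 40.9% and 41.1% in WT and 36.9%, 41.8% and 38.3% in KO. The share of Cldn7 was 38.2%, 39.0% and 38.1% in WT and 23.4%, 21.8% and 23.0% in KO. Cldn17 made up 1.70%, 1.52% and 1.07% of claudin mRNA in WT but 21.7%, 17.1% and 21.1% in KO. The groups were far apart for Cldn7 and Cldn17 and overlapped for Cldn4. Together Cldn3, Cldn4, Cldn7 and Cldn23 took 96.7% ± 0.408 in WT and 74.0% ± 1.63 in KO, and Cldn1, Cldn8 and Cldn17 took 2.49% ± 0.311 and 24.5% ± 1.84 (± SD, n = 3 each). The ratio of Cldn3 to Cldn8 mRNA fell from 22, 19.3 and 21 in the WT libraries to 1.33, 1.2 and 1.67 in the KO libraries. Shares of this kind are bound to one another, since a rise of Cldn17 lowers the share of every other claudin, and no test was made of them.

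**Figure D3:**
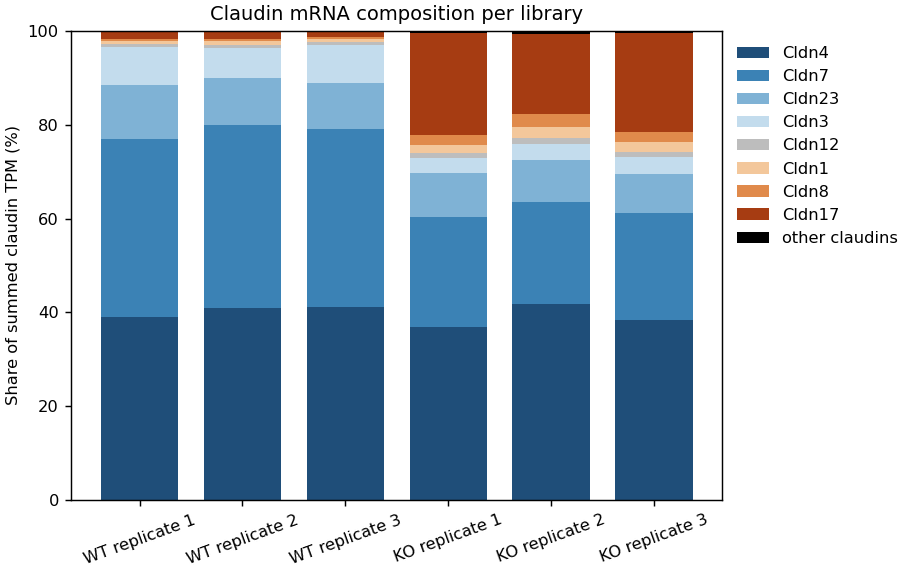
Stacked bars of the share of each claudin in the summed claudin TPM, in percent, for each of the 6 libraries. Cldn4 holds between 36.9% and 41.8% of every bar, while Cldn17 is a thin band in WT (at most 1.70%) and reaches 17.1% to 21.7% in KO.

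Some of the claudin genes that rose or fell are neighbours in the genome. Cldn3 and Cldn4 lie 39.3 kb apart on chromosome 5 and are read in opposite directions, and both were lower in KO. Of the other 6 genes tested within 100 kb of this pair, Mettl27, next to Cldn4, was lower (log2FC -1.62, adjusted p = 6.47e-06, edgeR), as was Dnajc30 (-0.57, adjusted p = 0.0171, edgeR). In contrast Stx1a (2.13, adjusted p = 1.98e-04, edgeR) and Bud23 (0.45, adjusted p = 0.00436, edgeR) were higher, and Abhd11 and Vps37d were not called (edgeR, adjusted p = 0.370 and 0.332). Cldn8 and Cldn17 lie 53.8 kb apart on chromosome 16 and are read in the same direction, and both were higher. The table lists no other gene within 100 kb of that pair. Cldn1 lies on the same chromosome but far from them. With 30.2% of all genes tested called lower and 31.8% higher, calls among neighbours are common here. A role of position was not tested.

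Occludin and the ZO scaffolds were lower in KO as well. Ocln (gene 18260, chromosome 13, positions 100496504 to 100553691, minus strand, 9 exons) had 1439, 1544 and 1785 counts in WT, against 1087, 1012 and 1150 in KO. The groups did not overlap but lay close, and 73.4% of the WT level was left. Its log2FC of -0.45 (SE 0.111, adjusted p = 0.00790, edgeR) was the smallest in size among the called genes of the 9.

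Tjp1 (gene 21872, chromosome 7, positions 65296165 to 65527808, minus strand, 28 exons) had 11721, 11855 and 12007 counts in WT, against 6140, 5495 and 6613 in KO. The WT replicates were nearly equal, and each KO library stood far below them. The level went from 552 ± 15.8 to 305 ± 27.4 CPM (± SD, n = 3 each), with a log2FC of -0.85 (SE 0.103, adjusted p = 1.67e-04, edgeR).

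Tjp3, which encodes the related scaffold ZO-3, fell from 482 ± 12.5 to 155 ± 14.4 CPM (± SD, n = 3 each). Its log2FC was -1.63 (SE 0.103, adjusted p = 5.58e-06, edgeR). The ratio of Tjp1 to Tjp3 mRNA per length was 0.504, 0.495 and 0.507 in WT, against 0.795, 0.842 and 0.939 in KO. In each KO library ZO-1 mRNA was therefore closer to ZO-3 mRNA than in any WT library.

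To see whether the loss was shared by the junction around these genes, 34 other tight junction genes were examined. Of these, 29 were tested, and 21 were lower, 1 was higher and 7 did not pass, a share of 72.4% lower beside 30.2% of all genes tested. The median log2FC was -0.59. Among the scaffolds and polarity proteins, the atypical kinase gene Prkcz (-1.71, SE 0.122, adjusted p = 1.09e-05, edgeR) and the Crumbs complex gene Patj (-1.17, adjusted p = 2.05e-05, edgeR) were lower. Cgn, for cingulin, and Cgnl1, for paracingulin, which link the junction to the cytoskeleton, were lower with log2FCs of -1.16 and -1.19. Amotl2, of the angiomotin family, had -1.28, with WT counts between 4768 and 6621 and KO counts between 1686 and 2777.

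Of the membrane proteins on the list that met the naming rule, Ildr1, a protein of the corners where 3 cells meet, had a log2FC of -1.34 (SE 0.102, adjusted p = 1.51e-05, edgeR). Marveld3, a relative of occludin, had -1.08 (adjusted p = 3.16e-04, edgeR), and the immunoglobulin-like protein gene Cxadr had -0.81 (adjusted p = 4.43e-04, edgeR). The polarity genes Pard3 (log2FC -0.20, 95% interval -0.44 to 0.04) and Crb3 (0.00, -0.25 to 0.24) and the scaffold gene Magi1 (0.12, -0.24 to 0.48) did not pass. The single higher gene, Amot, named after its value was seen, had at most 2.14 counts in a WT library but 79, 63 and 85 in KO, so that KO was higher by at least 27.2-fold (the KO mean against a floor of 3 counts). A broader list, the Gene Ontology term for the bicellular tight junction without the 9 genes, was chosen after values were seen and shares genes with the 34. Of its 89 genes tested, 57.3% were lower and 18.0% higher, beside 30.2% and 31.8% of all genes tested.

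**Figure D4:**
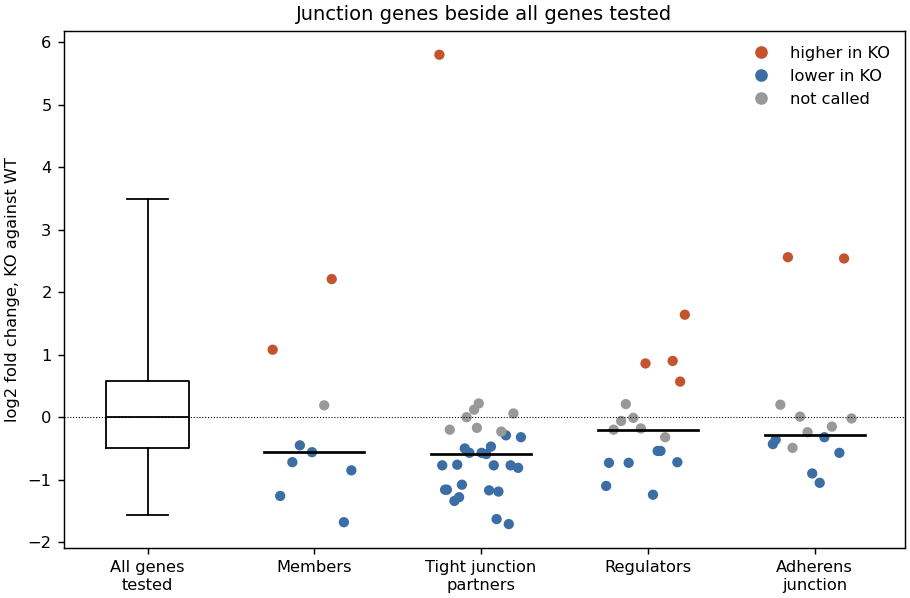
Log2 fold change of KO against WT on the vertical axis for all 13305 genes tested (box with the quartiles and whiskers at the 5th and 95th percentiles) and for each gene of 4 lists, coloured by call, with a line at the median. The medians lie at -0.56 for the 9 members, -0.59 for the tight junction partners, -0.20 for the regulators and -0.28 for the adherens junction genes, beside 0.01 for all genes.

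Genes known to act on claudins or occludin were examined next. Of 21 such genes 17 were tested, of which 7 were lower (41.2%), 4 higher (23.5%) and 6 not called, beside 30.2% lower and 31.8% higher among all genes tested. Among the transcription factors, Grhl2, an activator of Cldn4 and Cdh1, fell from 122 ± 0.350 to 74.3 ± 4.33 CPM (± SD, n = 3 each) with a log2FC of -0.72 (SE 0.0812, adjusted p = 1.21e-04, edgeR). Its relative Grhl3, a factor of the epidermal barrier, was higher (0.86, SE 0.177, adjusted p = 0.00297, edgeR), while Grhl1 did not pass (0.21, 95% interval -0.06 to 0.48). Elf3, an epithelial factor of the ETS family, was lower (-1.10, adjusted p = 2.66e-04, edgeR). The repressor genes Ovol1 and Ovol2 went opposite ways, with log2FCs of 1.64 and -1.24. Snai2, which encodes Slug, a repressor of junction genes, had 494, 495 and 357 counts in WT, against 712, 793 and 827 in KO, a log2FC of 0.90 (SE 0.135, adjusted p = 5.51e-04, edgeR). Snai1, Zeb1, Zeb2 and Twist1, repressors of the same kind named after their values were seen, held at most 1 count in each WT library and had too few counts for the edgeR test. In KO, Snai1 had 11, 5 and 8 counts and Zeb2 had 18, 6 and 22, while Zeb1 and Twist1 stayed at or under 5.08. DESeq2, run on all 21 genes, called 6 higher and 7 lower. Klf4, an activator of epithelial genes, did not pass (-0.32, 95% interval -0.68 to 0.05).

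Epcam encodes a membrane protein that binds and steadies claudins, among them the product of Cldn7. It was lower, at a log2FC of -0.54 (SE 0.117, adjusted p = 0.00382, edgeR). The protease inhibitor gene Spint2 was lower (-0.73) and Spint1 did not pass (-0.18, 95% interval -0.48 to 0.11). Wnk4, for a kinase that acts on claudins, was called higher (0.57, adjusted p = 0.0240, edgeR) although the groups overlapped.

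The adherens junction, which lies just below the tight junction on the same membrane, was taken as a comparison. Of its 14 genes tested, 6 were lower (42.9%), 2 higher (14.3%) and 6 not called, beside 30.2% lower and 31.8% higher among all genes tested, with a median log2FC of -0.28. Cdh1, for E-cadherin, had 80.0% of its WT level left (log2FC -0.32, SE 0.117, adjusted p = 0.0396, edgeR). Ctnna1 (-0.90), Nectin2 (-1.05), Nectin4 (-0.57), Afdn (-0.43) and Vcl (-0.36) were lower. The catenin genes Ctnnb1 (0.20, 95% interval -0.02 to 0.41), Ctnnd1 (-0.15, -0.41 to 0.11) and Jup (0.01, -0.46 to 0.47) did not pass. Cdh3, for P-cadherin, rose from 12.1 ± 2.69 to 70.8 ± 11.8 CPM (± SD, n = 3 each), with a log2FC of 2.54 (SE 0.191, adjusted p = 1.41e-05, edgeR). The other higher gene, Nectin3, named after its value was seen, reached 29 counts at most.

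Since Cdh1 marks epithelial cells of every kind, the junction genes were also set against it within each library, as a ratio of TPM. Cdh1 was itself lower, with a mean TPM of 270 ± 23.3 in WT and 170 ± 20.2 in KO (± SD, n = 3 each). This fall in TPM is larger than that on the tested CPM scale, where 80.0% of the WT level was left. The ratios therefore show a smaller fall than the TPM of the junction genes alone. Cldn7 stood at 1.53, 1.71 and 2.09 times Cdh1 in WT and at 0.795, 0.921 and 1.08 times in KO. Tjp3 went from 1.28, 1.23 and 1.39 to 0.507, 0.532 and 0.528. These ranges did not overlap, nor did those of Cldn3 and Tjp1. Cldn4 stood at 1.56, 1.79 and 2.26 in WT and at 1.25, 1.77 and 1.80 in KO, so that per Cdh1 mRNA the groups overlapped.

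Markers of other cell types moved in the same libraries, where 31.8% of all genes tested were called higher and 30.2% lower. Of 8 stromal markers 6 were tested, of which 5 were higher and 1 lower. Their sums lay between 13.4 and 16.9 CPM in WT and between 19.2 and 32.3 CPM in KO. The WT sum was held mainly by Pdgfra, the 1 lower gene, whose mean went from 13.1 to 1.21 CPM. Of the 5 higher genes, Vim went from a mean of 0.901 to 10.3 CPM and Thy1 from 0.108 to 7.27 CPM, so the sums understate their rise. Of 5 endothelial markers in the table, 1 was higher, Tek and Kdr were at or under 3 counts throughout, and the sum was at most 3.70 CPM. Of 7 immune markers 6 were tested, of which 4 were higher and 1 lower. The sums of 271 to 347 CPM in WT and 267 to 339 CPM in KO were held mainly by Itgam, which itself was lower (means of 266 and 175 CPM). Of the 4 higher genes, Ptprc went from a mean of 0.402 to 5.27 CPM and Lyz2 from 0.0626 to 9.39 CPM. Cd74 went from 7.99 to 64.3 CPM and Csf1r from 0.589 to 7.58 CPM, so the sums hide their rise. Of 6 Schwann cell markers 3 were tested, of which 2 were lower. Their sum, held mainly by Mbp, went from between 198 and 252 to between 120 and 144 CPM. Simple epithelial markers, 1 of 3 tested higher, summed to 53.1 to 75.3 CPM in WT and 70.2 to 162 CPM in KO. In the KO libraries in which Cldn1, Cldn8 and Cldn17 were higher, the mucosal keratin genes Krt4 and Krt13 (log2FCs of 7.19 and 4.28) and the epidermal genes Krt1 and Krt10 (9.64 and 9.67) were higher as well. The epidermal gene Ivl was lower (-0.60, adjusted p = 0.0333, edgeR), and Krt8 (-0.91) and Krt18 (0.04) were not called. The part of these cell types in the claudin changes was not tested.

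The genes most alike in pattern were taken by Pearson correlation of log2 CPM over the 6 libraries, among 10457 genes with a mean of at least 100 counts. Cgnl1 came first for Cldn3 (r = 0.999), and Lmo7, which encodes a junction-associated protein, came next after Gak for Tjp1 (r = 0.999). Tom1l1 came first for Cldn8, Pstpip2 for Cldn7, Nt5c2 for Cldn23, Vps4b for Cldn4, Neil3 for Cldn1, Bcl2l1 for Ocln and Srp54c for Cldn12. Second came Fbxo28 for Cldn8, Slc5a8 for Cldn7, Arrdc1 for Cldn23 and Cab39 for Cldn4. For Cldn1, Ocln, Cldn12 and Cldn3 the second were Pmm2, Sh2d4a, Rrm1 and Cmas. For Cldn17 the first were Pla2g4e and Lce3b, the latter a gene of the cornified envelope. With 2 groups of 3 such values mostly reflect the difference between the groups, and 1103 genes had an r above 0.95 with Cldn3 against 36 with Cldn12. For Tjp1 and Cldn17 the number was 1489 and 1430.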

How the data were processed

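Reads were cleaned by the authors (SOAPnuke), placed with Bowtie2 2.2.5 and quantified with RSEM 1.2.12, and they deposited estimated counts, FPKM and TPM per gene and library. The labels name mm9, but the gene coordinates in the table are on GRCm38 chromosome accessions. Averages over groups and the authors' own DESeq2 fold changes and p-values, also deposited, were not used. After rounding, the counts entered edgeR 4.0.16 under R 4.3.3 (TMM, filterByExpr, quasi-likelihood, genotype as the only term). CPM values carry the TMM factors, and the SE was derived from the fold change and its F statistic. TPM served to compare genes within a library. The p-values measure the spread between 3 samples per group, and floors of 3 counts cover counting error only. The sources do not state a stranded count, and genes that overlap may therefore share reads.

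The members and gene lists were chosen with earlier results of these data known. Named were Rela, the 9 genes, each other claudin tested, and from each list up to 10 called genes by size of change (a mean of at least 100 counts in the higher group) and 3 uncalled genes by count, plus markers of other cell types and the 2 genes most alike to each member. Genes named beyond this are marked, and some genes under the rule are not reported here. Neighbours were taken by position and promoter motifs were chosen after the values were seen. Exons are those of the GENCODE M21 transcript with the longest coding sequence. Alternatives were DESeq2 1.42.0, RLE factors, library totals, TMM without the 20 highest genes, no filter or a mean of at least 50 counts, robust dispersion, limma 3.58.1 on log2(FPKM + 1) and log2(FPKM + 0.1), a gene length offset, a replicate block, leaving out each library, and shares of counts in place of TPM. The fit was tested on simulated data with few changed genes, equally many up and down. That setting does not cover a change as broad as the one here. Python 3.11.15, pandas 2.3.3, numpy 2.4.6 and matplotlib 3.10.9 were used.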

Additional observations from a re-analysis of the deposited data

How the results depend on the processing

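Of the 9 genes, 8 were called with the same direction under each of 17 alternatives, and Cldn12 passed only with the gene length offset (log2 fold change 0.35). Without a filter on low counts 4 other claudins were called, all higher, among them Cldn2 and Cldn15 with at most 9 and 10 counts (adjusted p of 0.0455 and 0.0471, edgeR), and 7 regulators were called higher. With a mean of at least 50 counts, 1 other claudin, 0 tight junction partners and 1 adherens junction gene were called higher, because fewer genes were tested. With the gene length offset 3 partners were called higher and 3 adherens junction genes lower, and the cause was not tested. As shares of counts, Cldn3, Cldn4, Cldn7 and Cldn23 took 95.2% in WT, and Cldn1, Cldn8 and Cldn17 took 3.05% in WT and 22.3% in KO. Leaving out 1 library at a time gave between 7282 and 8145 called genes and between 20 and 23 called partners, and 8 of the 9 genes each time. Samples with the same number did not visibly deviate together (correlations of 0.034, -0.010 and 0.061), and samples with unlike numbers gave between -0.159 and 0.123. With 3 samples per group this cannot settle whether the numbers pair the animals. With the replicate block 8083 genes were called, 8 of the 9 genes among them. The depth leaves the rarer claudins near the limit of detection.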
